A study of Mus musculus with 4 samples.

Results

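Beta-oxidation genes and the genes of the carnitine shuttle were followed across 4 arrays of cultured mouse macrophages. The 33 genes were listed by symbol, and 32 of them had a probe set that the platform annotation gives to that symbol alone, among 22180 genes measured in this way. Cpt1b, the muscle form of the outer carnitine palmitoyltransferase, was covered only by a probe set shared with other genes and was left out of the counts. Bone marrow cells had been grown into macrophages for 7 days with L929 conditioned medium, which supplies the growth factor CSF1. Donor mice were 8 to 12 weeks old. Wild type denotes Hilpdaflox/flox littermates, in which the floxed gene is intact, and knockout denotes HilpdaΔMΦ mice, in which it was deleted in macrophages; no source used here names the driver of the deletion. All cells had received 600 µM of fatty acids on albumin, as 1 part palmitate, which is saturated, to 2 parts oleate, which is monounsaturated. The 4 groups were wild type and knockout after 12 h and after 24 h. Each group was 1 array of RNA pooled from 3 samples, so no spread between replicates could be measured and a difference between any pair of arrays was not tested. Cells without added fatty acids were not analysed here. Values are log2 levels, on which 1 unit is a doubling, and a difference of 0.58 is 1.5-fold.

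Hilpda encodes a small lipid droplet protein that restrains adipose triglyceride lipase, the enzyme that starts to free fatty acids from stored triglyceride. The freed acids, once joined to coenzyme A, can enter mitochondria through the carnitine shuttle. There the beta-oxidation spiral shortens them by repeated dehydrogenation, hydration, a second oxidation and thiolytic cleavage, and electron transfer flavoprotein passes electrons from the dehydrogenases to the respiratory chain. Peroxisomes run a similar spiral on very long and branched chains. In many tissues these genes are targets of the PPAR receptors, which bind fatty acids. The arrays therefore show whether transcripts for burning fatty acids differ between macrophages with and without a brake on their release.

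No member differed by 1.5-fold between the genotypes or between the times. The count was 0 of 32 for knockout minus wild type at 12 h, where 2.83% of all measured genes were past 1.5-fold, and 0 of 32 at 24 h, where 5.4% were. It was also 0 of 32 for 24 h minus 12 h in wild type, against 6.66% of all measured genes, and in knockout, against 5.09%. Shares of this size correspond to few genes in a list of 32, so counts of 0 do not set the members apart. The median member differed by 0.05 in size at 12 h and by 0.16 at 24 h between the genotypes, beside 0.13 and 0.16 over all measured genes. All 32 members had a mean level past the 40th percentile of genes, a log2 level of 2.44, and 29 were past the 60th, at 4.37. Among the 8872 genes past the 60th percentile the median sizes were 0.09 and 0.15.

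**Figure D1:**
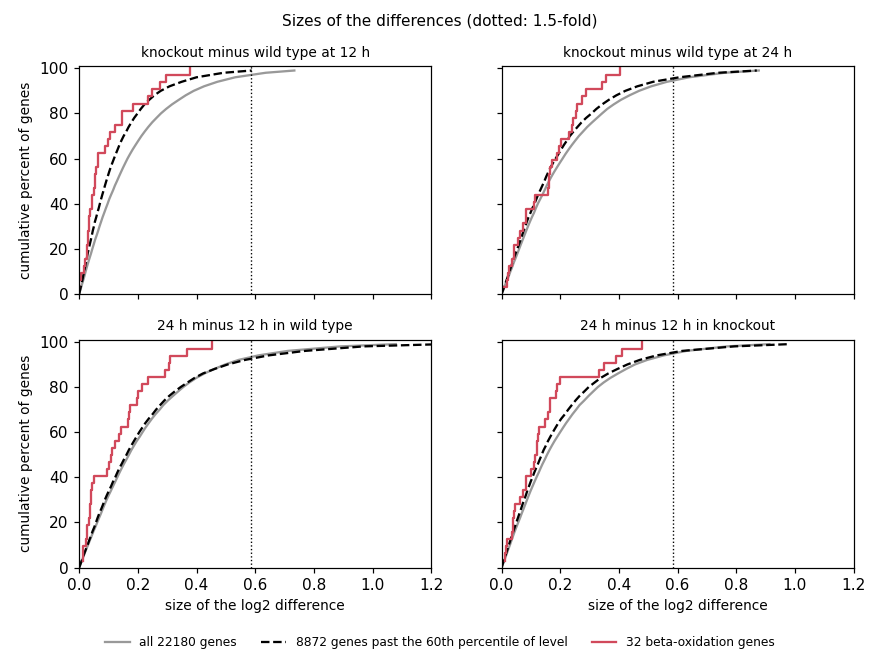
Cumulative percent of genes (vertical axis) by size of the log2 difference (horizontal axis) in the 4 pairwise comparisons, for the 32 members, all measured genes and those past the 60th percentile of level. The red curve of the members reaches 100% before the dotted line at 1.5-fold in each panel, and the largest member difference is 0.48.

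Promoter sequence is shown for 4 genes on which the description below turns: the entry enzyme Cpt1a, the medium-chain dehydrogenase gene Acadm, the long-chain dehydrogenase gene Acadl with the largest genotype difference at 24 h, and the head-to-head pair Hadha and Hadhb, for which the Hadhb side is printed. The 250 bases before each annotated start were taken from RefSeq (GRCm38.p6) and are given on the strand of the gene. Capitals mark AGGTCA, the core motif of nuclear receptors such as PPAR, and GGGCGG, the GC box, on either strand, so that they can also read TGACCT and CCGCCC.
Cpt1a (chr19:3323051-3323300, plus strand): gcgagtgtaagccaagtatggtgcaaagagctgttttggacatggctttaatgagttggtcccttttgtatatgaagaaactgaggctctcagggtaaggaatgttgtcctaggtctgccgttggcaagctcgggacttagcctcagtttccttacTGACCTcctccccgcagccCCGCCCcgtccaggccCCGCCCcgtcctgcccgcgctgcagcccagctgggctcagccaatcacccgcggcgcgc
Acadm (chr3:153944644-153944893, minus strand): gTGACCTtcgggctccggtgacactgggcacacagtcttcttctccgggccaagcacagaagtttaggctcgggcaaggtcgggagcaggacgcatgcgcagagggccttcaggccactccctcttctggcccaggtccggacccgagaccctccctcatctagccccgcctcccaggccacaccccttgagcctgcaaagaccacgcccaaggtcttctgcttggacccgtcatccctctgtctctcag
Acadl (chr1:66863310-66863559, minus strand): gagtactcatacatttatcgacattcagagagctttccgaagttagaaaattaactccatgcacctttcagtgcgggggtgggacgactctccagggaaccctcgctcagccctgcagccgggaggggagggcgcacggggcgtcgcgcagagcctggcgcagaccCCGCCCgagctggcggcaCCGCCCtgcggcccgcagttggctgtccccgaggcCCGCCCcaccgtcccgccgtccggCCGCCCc
Hadhb (chr5:30155003-30155252, plus strand): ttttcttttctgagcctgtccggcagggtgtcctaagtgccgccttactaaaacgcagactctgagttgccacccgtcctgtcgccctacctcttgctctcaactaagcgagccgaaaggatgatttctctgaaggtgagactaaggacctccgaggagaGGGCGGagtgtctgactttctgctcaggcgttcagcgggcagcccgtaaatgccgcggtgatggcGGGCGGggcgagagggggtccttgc
Windows of 300 bases (250 before the start and 50 after it) were given for 27 of the 33 genes. AGGTCA was in 5 of the 27 windows (18.5%), those of Acadm, Acadvl, Cpt1a, Echs1 and Scp2, and in 14.7% of 21263 windows of protein-coding genes. The direct repeat AGGTCANAGGTCA, which contains AGGTCA at both ends, was in 0 of the 27 and in 0.047% of the coding windows. GGGCGG was in 22 of the 27 (81.5%) and in 46.2% of the coding windows. These are matches of letters and were not tested.

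The carnitine shuttle genes differed little between the genotypes, with the largest difference for Slc25a20 at 24 h. Cpt1a, which makes acylcarnitines at the outer membrane and sets the rate of entry, was at 10.28 and 10.24 at 12 h (wild type, then knockout), and at 10.08 and 10.04 at 24 h. Both arrays at 24 h were thus lower than both at 12 h, by 0.20 in each genotype, while the genotype difference was -0.04 at both times. Cpt2, which turns acylcarnitines back into acyl-CoA inside mitochondria, was at 6.70, 6.81, 6.65 and 6.74 (in the order wild type 12 h, knockout 12 h, wild type 24 h, knockout 24 h, kept from here on), and knockout was higher at each time, by 0.11 and 0.08. Slc25a20, the carnitine-acylcarnitine carrier of the inner membrane, was at 7.82, 7.80, 7.59 and 7.84. Its wild-type 24 h array stood below the other arrays, which lay within 0.04 of each other, and the genotype difference there was 0.25. That size is near the 68th percentile of sizes over all measured genes at 24 h. Crat, the acetyltransferase that exports acetyl groups, had genotype differences of 0.02 and -0.02, and Crot, which makes medium-chain acylcarnitines in peroxisomes, of -0.04 and 0.04. Over the 5 measured shuttle genes the median genotype difference was -0.02 at 12 h and 0.04 at 24 h.

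Acyl-CoA dehydrogenases, which take the first step of the spiral according to chain length, showed the largest differences on both sides at 24 h. Acadl, for long chains, was at 8.41, 8.41, 8.19 and 8.60. The genotypes were level at 12 h and 0.41 apart (1.32-fold) at 24 h, with wild type lower and knockout higher than their 12 h values; 1508 of the 22180 genes had a difference as high or higher. It was the only member past 1.3-fold between genotypes at 24 h, a size that 16.3% of all measured genes reached, and 0 members reached it at 12 h, against 10.8%. Acads, for short chains, was at 7.60, 7.36, 7.23 and 7.40, so that knockout was lower at 12 h (-0.23) and higher at 24 h (0.17). Acadsb, for short branched chains, went the opposite way with 7.03, 7.16, 7.34 and 6.99, differences of 0.12 and -0.35.

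The medium and very long chain enzymes were among the steadiest. Acadm was at 9.07, 9.12, 9.04 and 9.06, and Acadvl, at the inner membrane, at 7.44, 7.53, 7.48 and 7.49, so neither spanned more than 0.09 over the 4 arrays. Acad9, which also helps to assemble respiratory complex I, had the smallest span of all members, 0.07 (5.70, 5.63, 5.69 and 5.62). Acad10 was at 5.02, 5.27, 4.995 and 4.79, with the knockout arrays as the highest and the lowest, and Acad11 spanned 0.15. Of these 8 genes, 5 were higher in knockout at 12 h and 4 at 24 h.

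The enzymes that complete the mitochondrial spiral lay on the same side at 24 h, by small amounts. All 5 were higher in knockout at that time, with a median of 0.16, beside 50.9% of all measured genes and 53.8% of those past the 60th percentile; at 12 h 3 of the 5 were, with a median of 0.03. Hadha and Hadhb encode the subunits of the trifunctional protein, which handles long chains, and their annotated starts lie 273 bases apart on opposite strands of chromosome 5, with 228 bases common to both windows. Hadha was at 9.63, 9.66, 9.66 and 9.82, and Hadhb at 2.74, 2.77, 2.86 and 3.12. In each, the knockout 24 h array was the highest, and the genotype differences were 0.03 at 12 h for both and 0.16 and 0.26 at 24 h. The Hadhb probe set was dim, below the 60th percentile. Echs1, the short-chain hydratase, was at 7.26, 7.29, 6.96 and 7.13, lower at 24 h than at 12 h in both genotypes. Hadh, the hydroxyacyl-CoA dehydrogenase for short and medium chains, was at 8.91, 8.86, 8.72 and 8.76, with both 24 h arrays below both 12 h arrays. Acaa2, the thiolase, was at 7.98, 7.91, 7.96 and 8.02, with genotype differences of -0.07 and 0.06.

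The 3 electron transfer genes were higher in knockout at 24 h, with a median of 0.16, beside 50.9% of all measured genes. At 12 h Etfb and Etfdh were higher and Etfa was level, with a median of 0.05. Etfb, a flavoprotein subunit, was at 7.37, 7.52, 7.42 and 7.65, so that both knockout arrays lay above both wild-type arrays. Its genotype difference over both times was 0.19 ± 0.11 (SE) in a limma model of genotype plus time, with an adjusted p of 0.802. Etfa, the partner subunit, was at 7.95, 7.95, 7.79 and 7.94, where the wild-type 24 h array alone stood lower. Etfdh, which hands the electrons to ubiquinone, was at 8.23, 8.28, 8.14 and 8.25.

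Auxiliary enzymes that move or remove double bonds of unsaturated fatty acids did not share a direction. Eci1, a mitochondrial enoyl-CoA isomerase, was at 5.69, 5.74, 5.58 and 5.85, with differences of 0.05 and 0.27 between the genotypes. Eci2, a related isomerase, was at 6.43, 6.14, 6.33 and 6.09, and both knockout arrays lay below both wild-type arrays (-0.29 and -0.24; in the limma fit -0.27 ± 0.11 (SE), adjusted p 0.760). Decr1, the mitochondrial dienoyl-CoA reductase, was at 4.97, 4.94, 4.96 and 4.76, where the knockout 24 h array alone stood lower, at -0.20 against wild type. Its peroxisomal counterpart Decr2 had differences of -0.04 and 0.11. Ech1, a dienoyl-CoA isomerase, was at 8.95, 8.95, 8.99 and 9.07, level between genotypes at 12 h and 0.08 apart at 24 h.

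The peroxisomal enzymes had a median genotype difference of -0.10 at 12 h and -0.18 at 24 h, with 4 of 6 lower in knockout at each time. Of all 22180 measured genes, 11127 were lower in knockout at 12 h and 10870 at 24 h. The 4 were not the same genes, and only Ehhadh and Acaa1b were lower at both times. Hsd17b4, the bifunctional hydratase and dehydrogenase, was at 8.76, 8.79, 8.93 and 8.77, with the wild-type 24 h array above the others. Acox3, an oxidase for branched chains, was at 8.12, 8.22, 8.10 and 7.81, where the knockout 24 h array stood below the rest. Acaa1a, a thiolase, was at 6.33, 6.15, 6.03 and 6.27, so the order of the genotypes turned between the times (-0.18 and 0.24). Scp2, a sterol carrier with thiolase activity, was at 7.33, 7.32, 7.16 and 7.23, with genotype differences of -0.01 and 0.07.

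The peroxisomal members with both genotype differences below 0 were dim. Ehhadh, a second bifunctional enzyme, was at 2.83, 2.46, 2.98 and 2.79, and Acaa1b, a close copy of Acaa1a whose signal an array can mix with it, at 2.46, 2.18, 2.91 and 2.57. Both lay under the 60th percentile, and at 12 h the knockout arrays were at 2.46 and 2.18 beside the 40th percentile of 2.44. Acaa1b had the widest span of all members, 0.73, and an adjusted p of 0.760 for genotype (-0.31 ± 0.11, SE) in the limma fit.

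**Figure D2:**
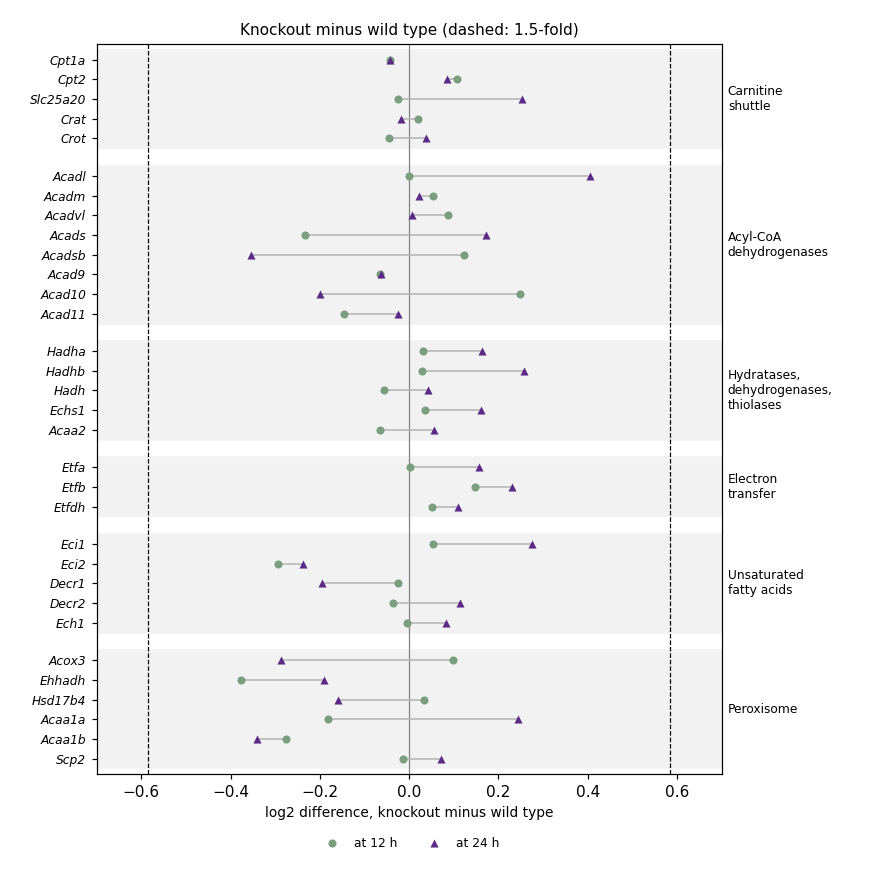
Log2 difference of knockout minus wild type (horizontal axis) for each of the 32 members at 12 h (circles) and 24 h (triangles), grouped by role, with dashed lines at 1.5-fold. No point reaches a dashed line; the farthest are Acadl at 24 h (0.41) and Ehhadh at 12 h (-0.38).

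Across all members, 16 were higher and 16 lower in knockout at 12 h, and 20 were higher and 12 lower at 24 h. The medians were 0.00 and 0.05, beside 0.00 and 0.01 over all measured genes. Both genotype differences had the same sign in 18 members, 11 of them above 0 and 7 below, and opposite signs in 14. Signs matched in 51.6% of all measured genes and in 54.9% of those past the 60th percentile. The genotype difference moved up from 12 h to 24 h in 22 of 32 members, by a median of 0.08 over the list, and 50.6% of all measured genes moved that way. It also moved up in 13 of the 14 measured citrate cycle genes, by a median of 0.09 over that list. The largest moves among the members were -0.48 for Acadsb, -0.45 for Acad10, 0.43 for Acaa1a, 0.41 for Acads and 0.40 for Acadl, all under 1.5-fold. In 13 of 32 members the wild-type 24 h array was the lowest of the 4, among them Slc25a20, Acadl, Acads, Echs1, Etfa and Eci1; it was the lowest in 33.8% of all genes past the 60th percentile. Differences at 24 h and the time differences in wild type use this same array.

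**Figure D3:**
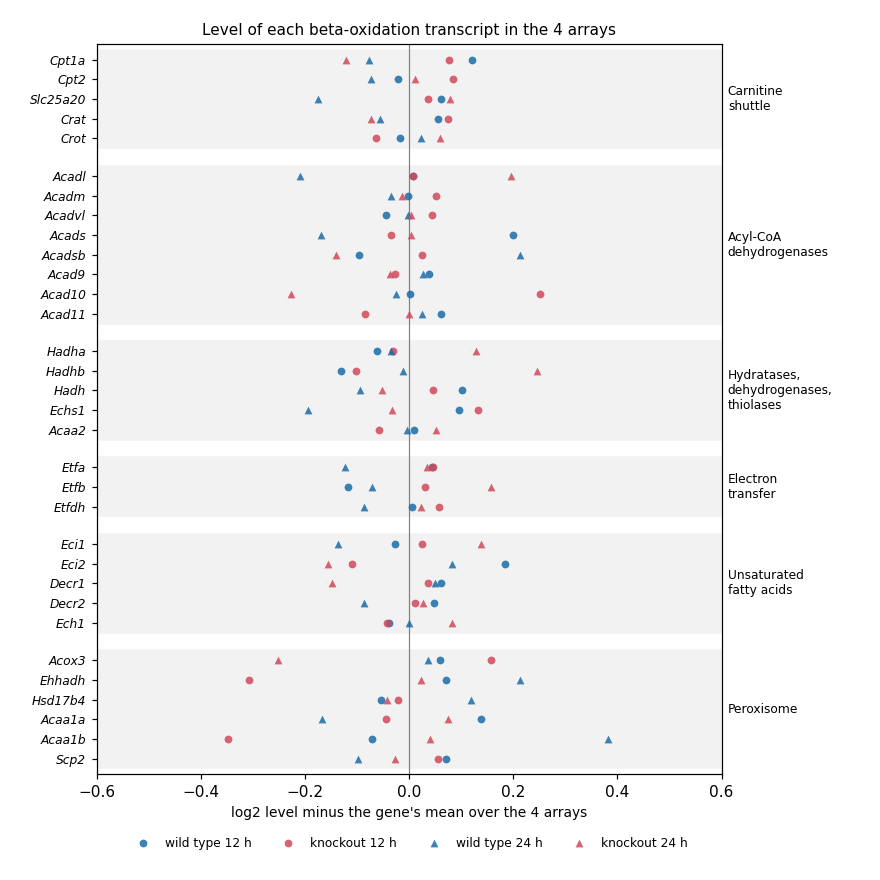
Log2 level of each member minus its own mean over the 4 arrays (horizontal axis), with blue for wild type, red for knockout, circles for 12 h and triangles for 24 h. The median member spans 0.20 from its lowest to its highest array, and blue triangles lie leftmost for 13 members.

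Between 12 h and 24 h of fatty acids, 22 of 32 members were lower at 24 h in wild type and 17 of 32 in knockout, with medians of -0.04 and -0.01. Of all 22180 measured genes, 11069 were lower at 24 h in wild type and 10658 in knockout. Among the 8872 genes past the 60th percentile, 4747 were lower in wild type and 4359 in knockout. Over all measured genes the medians were 0.00 and 0.01, and over those past the 60th percentile -0.02 and 0.00. In wild type the lowest were Acads (-0.37), Acaa1a (-0.31) and Echs1 (-0.29), and the highest Acaa1b (0.45) and Acadsb (0.31). In knockout the lowest were Acad10 (-0.48) and Acox3 (-0.41), and the highest Acaa1b (0.39), Hadhb (0.35) and Ehhadh (0.33). These highest members in knockout were dim, with mean levels below the 60th percentile. A size of 1.3-fold was reached by 1 member in wild type, Acaa1b, and by 3 in knockout, Acaa1b, Acad10 and Acox3, where 17.7% and 15.4% of all measured genes reached it. Cpt1a and Echs1 were lower at 24 h in both genotypes (-0.20 and -0.20, and -0.29 and -0.16).

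**Figure D4:**
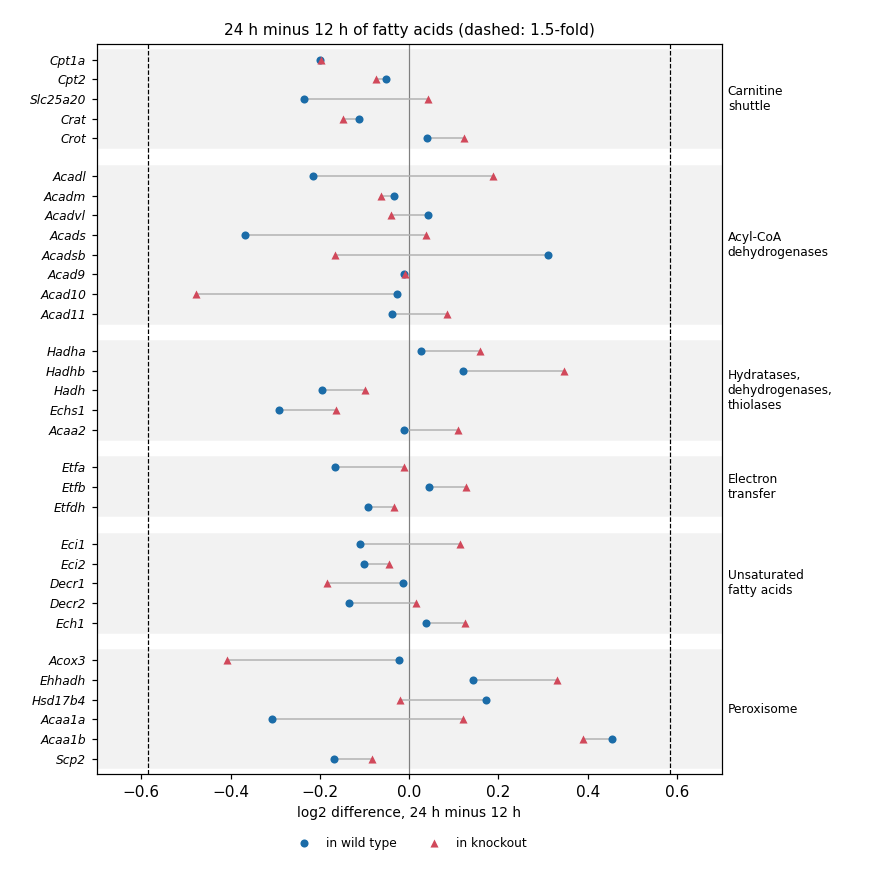
Log2 difference of 24 h minus 12 h (horizontal axis) for each member in wild type (circles) and knockout (triangles), with dashed lines at 1.5-fold. All points lie inside the dashed lines. The dim Acaa1b is the highest in both genotypes (0.45 and 0.39) and Acad10 in knockout the lowest (-0.48).

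The limma fit took all 4 arrays with genotype and time as added terms and had 1 residual degree of freedom, so a gene's own error is how far its genotype difference moved from 12 h to 24 h, with no replicates behind it, and limma draws it strongly toward a variance shared over all genes (3.30 prior degrees of freedom). In this fit, with Benjamini-Hochberg adjustment over 13308 genes, 0 of 32 members and 0% of all genes had an adjusted p under 0.05 for genotype, and likewise 0 of 32 and 0% for time. The share for time depends on the settings, with 146 genes called when the filter was set at the 60th percentile and 540 with an intensity trend, and 0 members in both. At an unadjusted p under 0.05 there was 1 member for genotype and 1 for time, beside 6.52% and 13.2% of the genes; in both cases it was Acaa1b. The lowest adjusted p among members was 0.760 for genotype and 0.266 for time. The value for genotype was also the lowest over all 13308 genes, so no gene in the fit had a lower one. Genotype estimates of the members ran from -0.31 (Acaa1b) to 0.20 (Acadl), and their standard errors from 0.11 to 0.16.

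Of 72 other measured genes of the pathway, for activation, regulation, peroxisomes, ketone and propionate steps and the citrate cycle, 0 were higher and 1 lower by 1.5-fold in knockout at 12 h, and 2 were higher and 2 lower at 24 h, where 2.83% and 5.4% of all measured genes were past that size. From 12 h to 24 h, 2 were higher and 0 lower in wild type, and 1 was higher and 1 lower in knockout, beside 6.66% and 5.09%. Pdk4, a kinase that inhibits pyruvate dehydrogenase, was at 5.32, 4.49, 6.29 and 6.13. Both of its 24 h arrays were above both 12 h arrays, and knockout was lower at 12 h (-0.82). Txnip, a regulator of glucose uptake, was at 9.88, 9.68, 10.95 and 9.90, so that the wild-type 24 h array alone stood high.

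Acot13, a mitochondrial acyl-CoA thioesterase, was at 8.39, 8.49, 7.89 and 8.56, with that same array alone low. Ucp3, a mitochondrial carrier, was dim at 2.43, 2.72, 2.63 and 3.25, and Amacr, the racemase that prepares branched chains, was dim at 3.50, 3.85, 3.97 and 3.14. The 14 measured citrate cycle genes, which burn the acetyl-CoA made by the spiral, had medians of -0.03 and 0.04 between the genotypes and 0 past 1.5-fold. Of the 12 receptors, coactivators and other regulators, 0 were past 1.5-fold in any comparison. The other regulators were the corepressor Nrip1, the deacetylases Sirt1 and Sirt3, and Tfeb. All 12 were higher at 24 h in wild type, by a median of 0.14, and 5 of 12 in knockout, beside 49.98% and 51.8% of all measured genes. Some were dim, with Ppara and Ppargc1a below the 40th percentile and Ppargc1b and Tfeb below the 60th. Each of these time differences rests on 1 pair of arrays.

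All 10 macrophage markers were past the 60th percentile, while 0 of 6 neutrophil and 0 of 3 adipocyte markers reached the 40th. The 40th was reached by 1 of 3 B cell, 2 of 4 T cell and 2 of 4 dendritic cell markers. Of these only Itgax, a dendritic cell marker, was past the 60th. Hilpda was at 5.93, 5.41, 5.47 and 5.27, with genotype differences of -0.51 at 12 h and -0.20 at 24 h, both under 1.5-fold. A difference as low or lower was found in 530 measured genes at 12 h and in 4532 at 24 h. The knockout 12 h array also lay close to the wild-type 24 h array. Hilpda is thus a weak check of the labels at 12 h and does not check them at 24 h. Its probe set may lie outside the deleted part, which was not tested. Of the stromal and fibroblast markers, 9 of 9 were lower in the knockout array at 12 h and 8 of 9 at 24 h, with 7 of 9 past the 40th percentile; 49.7% and 50.9% of all measured genes were higher in knockout. Their summed signal on the linear scale was 534, 378, 885 and 508 over the 4 arrays, against 19575, 18980, 24081 and 20174 for the macrophage markers, of which 9 of 10 were lower in knockout at 24 h. Their part in the member values was not tested. In such bulk RNA, fewer cells of a type and less RNA per cell cannot be told apart.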

How the data were processed

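Transcripts of 4 pools were measured on Affymetrix whole-transcript arrays, 1 array per group, and groups were read from the sample titles. The authors deposited log2 expression values for each probe set. They were computed with RMA, as the submitters' processing notes state without a version; build and annotation are not given in the sources used here. RMA equalizes the distributions of the arrays, which hides any shift common to all transcripts. The log2 scale was read from the values, which ran from 0.627 to 13.2 with array medians of 2.70 to 2.73, and 0 columns were left unmatched. The number of arrays limits the precision.

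Of 41345 probe sets, 23521 carried 1 symbol in the platform annotation, 1814 several and 16010 none, and those with 1 symbol were used. The probe set with the highest mean stood for its gene; 31 of the 32 measured members had a single one. Level percentiles were taken over genes. Member counts and medians used no level filter, and the fit used genes past the 40th percentile (limma 3.58.1 in R 4.3.3; other steps in Python 3.11.15). The fit was checked on simulated data. All members were named, and other pathway genes only past 1.5-fold in a pairwise difference; values of all 4 arrays were added for members picked after their values were seen. Members and lists were chosen with earlier results of these data known. Alternatives were other level filters, fold rules, scalings, probe set rules and model terms.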

Additional observations from a re-analysis of the deposited data

Results flagged for a closer look

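Amacr had genotype differences of opposite sign at the 2 times, 0.35 at 12 h and -0.83 at 24 h, a change of -1.18 on the log2 scale. The change was not tested, since each time has 1 array per genotype, and the probe set was dim, with a mean log2 level under the 60th percentile of genes.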

How the results depend on the processing

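Under the 4 alternatives that rescale the values or average the probe sets of a gene, 0 of 512 member values reached 1.5-fold, the largest being 0.48, and no value moved by more than 0.13. The sign differed from the reported value in 19 of the 512, all with a reported size of at most 0.03. The median over the members ranged from -0.02 to 0.00 for the genotype at 12 h, from 0.04 to 0.07 at 24 h, from -0.05 to -0.02 for time in wild type and from -0.02 to 0.02 for time in knockout, so the genotype median at 12 h and the time median in knockout have no settled sign. The count past the fold rule was 0 in all comparisons at 1.5-fold and at 2-fold; at 1.3-fold it was 0 and 1 for the genotype at 12 h and 24 h, and 1 and 3 for time in wild type and knockout. In limma, 0 genes were called for genotype under each of the 6 alternatives. For time, 146 genes were called with the filter at the 60th percentile, 540 with an intensity trend and 1 with genotype left out of the model, against 0 as reported; the cause was not tested, and 0 of the members were called in each. No paired analysis was possible because each group has 1 array and the labels carry no replicate numbers. For the same reason no replicate could be left out.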

Other observations

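The probe set shared by Cpt1b, Chkb and Gm44502 was at log2 levels of 3.45 and 3.23 in wild type and knockout at 12 h and 3.55 and 3.80 at 24 h, and its signal cannot be assigned to Cpt1b. A second probe set that includes Acox3, shared with 4931431C16Rik, was at 3.22, 3.51, 3.32 and 2.99 in the same order, with the knockout 24 h array lowest, as on the brighter Acox3 probe set. The dimmer of the Crat probe sets was at 3.36, 3.33, 3.13 and 2.92.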
